A study of Mus musculus with 4 samples.

Results

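H19, Igf2 and Ins2 lie next to each other on distal chromosome 7 of the mouse and were taken by symbol from both deposited tables, 3 of the 26130 genes listed there. RNA was sequenced from embryonic stem cells of 4 kinds, with 1 library each: E14 Zfp57-/- and E14 wild type, both of strain 129P2/OlaHsd, and JB1 Zfp57-/- and JB1 wild type, both of strain JF1/B6. ZFP57 is a zinc finger protein that recognises imprinting control regions when they are methylated, and the comparison asked how its loss changes mRNA levels. All 4 cultures grew without feeder cells in foetal calf serum and leukemia inhibitory factor, and RNA went into a stranded Illumina TruSeq mRNA library. The labels do not say how Zfp57 was disrupted, or whether a knockout line is 1 clone. Nothing in the tables separates the maternal from the paternal copy of a gene.

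H19 is a spliced noncoding RNA that is normally made from the maternal chromosome. Igf2, which encodes a fetal growth factor, is normally made from the paternal one. A control region between the genes carries DNA methylation on the paternal chromosome, where it keeps H19 silent. On the maternal chromosome it is unmethylated and binds the insulator protein CTCF, which keeps Igf2 from enhancers that lie beyond H19. Ins2, one of the mouse insulin genes, is made in pancreatic beta cells and is imprinted in the yolk sac.

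In the tables (genome build mm9) H19 spans chromosome 7, 149761434 to 149764048, on the minus strand. Igf2 follows at 149836673 to 149852721 and Ins2 at 149864561 to 149885415, both also on the minus strand. Igf2as, a noncoding gene on the plus strand at 149845598 to 149856261, overlaps the 5′ part of Igf2. The tables give 1 value per gene, so exons, introns and the separate promoters of Igf2 could not be told apart.

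H19 and Igf2 each host a microRNA, which is shown here because its host transcript is what the libraries measured. In GENCODE M21 (GRCm38), the Mir675 hairpin lies inside exon 1 of annotated H19 transcripts, and the Mir483 hairpin lies inside Igf2 and in none of its annotated exons. The mature sequences below are from RefSeq (GRCm38.p6, chromosome 7, minus strand), 5′ to 3′, with the seed (bases 2 to 8) in capitals. No other mature sequence among the 1679 names in the RefSeq table shares any of these 4 seeds. The tables give the host genes only, and no level of a mature microRNA is reported.
mmu-miR-675-5p: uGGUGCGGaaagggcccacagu
mmu-miR-675-3p: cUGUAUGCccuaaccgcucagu
mmu-miR-483-5p: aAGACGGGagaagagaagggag
mmu-miR-483-3p: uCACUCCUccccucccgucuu

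Of the 3 members, 1 matched the RefSeq promoter table, Igf2, with 4 windows of 300 bases (250 before and 50 after a transcript start). On either strand, 1 of these 4 windows held TGCCGC, the letters that ZFP57 recognises when methylated. Among all 32851 windows of that length, 11.6% held it. The match lies on the opposite strand, from base 31 after the transcript start of window 2, on chromosome 7 at 142661224 to 142661253 of GRCm38.p6 with its flanks, and the capitals mark it.
Igf2 window 2: tacggtgtcccaGCGGCAgcacagattttg
A match of letters is a description, and the control region itself lies outside these windows.

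The libraries divide their values by 50478922 to 96996280 reads, of which 53.1% to 68.9% fell in listed genes. Levels are in RPM, reads per 1000000 of that total, and whole reads could be recovered from every value. Zfp57 itself was at 51.8 RPM in E14 Zfp57-/- and 134.9 RPM in E14 wild type, and at 42.9 RPM in JB1 Zfp57-/- and 796 RPM in JB1 wild type, so both directions matched the labels. Pou5f1, Sox2 and Nanog, which define pluripotent cells, were between 137 and 939.8 RPM in all 4 libraries. Nanog was at 137 RPM in E14 Zfp57-/- and 228 RPM in E14 wild type, and at 362 and 693 RPM in JB1. Sox2 was at 154 and 181 RPM in E14 and at 393 and 625 RPM in JB1. The Pou5f1 ratio of Zfp57-/- to wild type was 0.921 in E14 and 1.02 in JB1. Each group is 1 library, so the 95% intervals below cover counting error only. They treat each read as an independent molecule, which libraries lacking molecular identifiers cannot show.

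H19 was higher in the knockout library of both lines. It had 1395 reads in E14 Zfp57-/- and 500 in E14 wild type, which is 19.7 RPM (95% interval 18.7 to 20.8) and 9.91 RPM (9.06 to 10.8). In JB1 it had 18061 reads in Zfp57-/- and 3702 in wild type, or 186 RPM (183 to 189) and 53.5 RPM (51.8 to 55.2). JB1 Zfp57-/- was highest and E14 wild type lowest, and no 2 of the 4 counting intervals overlapped.

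**Figure D1:**
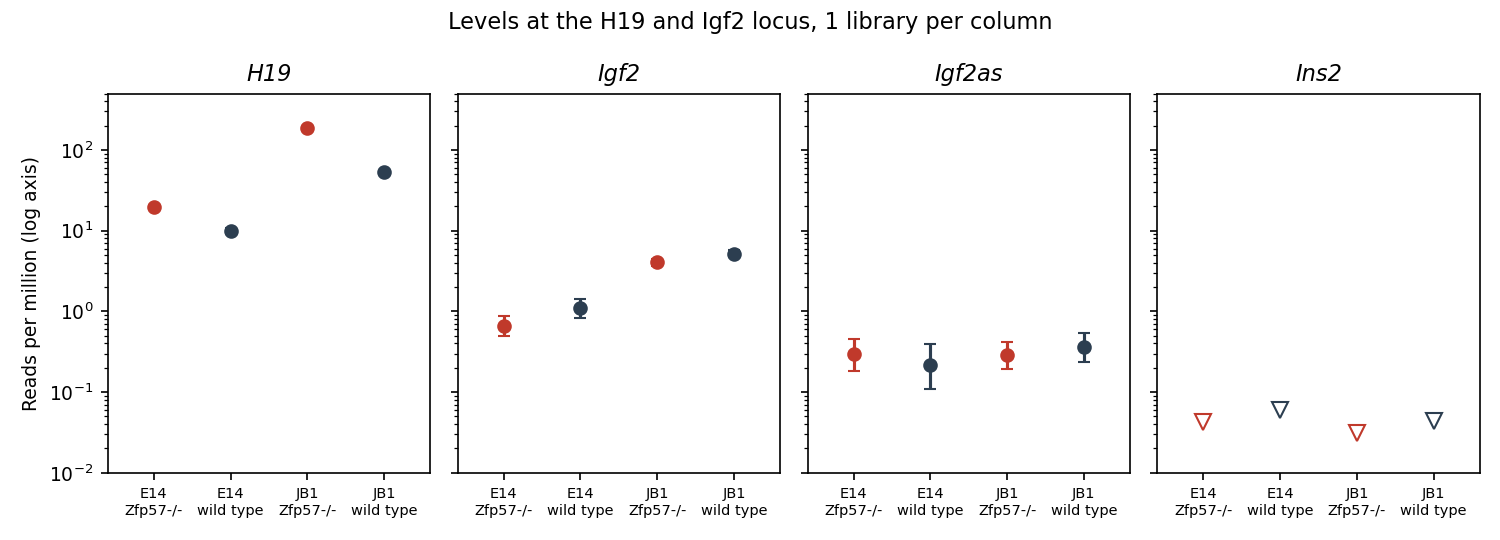
Levels of H19, Igf2, Igf2as and Ins2 in RPM on a log axis, 1 point per library, with 95% Poisson intervals (hidden where smaller than the point); open triangles mark the 3-read limit of libraries with 0 reads. H19 is higher in both knockout libraries (19.7 against 9.91 RPM in E14, 186 against 53.5 RPM in JB1), Igf2 is lower in both, and Ins2 has no reads.

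The H19 ratio of Zfp57-/- to wild type was 1.99 in E14 (95% interval 1.797 to 2.21) and 3.48 in JB1 (3.36 to 3.61). The ratio was thus 1.75 times as large in JB1 as in E14 (counting interval 1.57 to 1.95), a difference that has no test with 1 library per group. On the log2(RPM + 1) scale, which is used below to count genes, the differences were 0.93 in E14 and 1.78 in JB1. A gene counted as at least 2-fold changed when this difference reached 1, provided that it had 1 RPM or more in one of the line's libraries. By this rule H19 was not counted in E14, where 0.953% of 12276 genes were at least 2-fold higher. It was counted in JB1, where 2.5% of 13132 genes were. By any amount, 53.5% of genes were higher in the E14 knockout library and 51.5% in the JB1 knockout library. In descending order of the difference, H19 stood at place 152 in E14 and place 40 in JB1. Since the 2-fold rule and the order use 1 library a side, neither carries replicate error.

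Igf2 was lower in the knockout library of both lines, by a smaller margin and from far fewer reads. It had 47 reads in E14 Zfp57-/- and 56 in E14 wild type, which is 0.665 RPM (95% interval 0.489 to 0.884) and 1.11 RPM (0.838 to 1.44). In JB1 it had 396 reads in Zfp57-/- and 360 in wild type, or 4.08 RPM (3.69 to 4.51) and 5.20 RPM (4.68 to 5.77). JB1 wild type was highest. The intervals of the 2 E14 libraries overlapped, and those of the 2 JB1 libraries did not.

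The Igf2 ratio of Zfp57-/- to wild type was 0.599 in E14 (95% interval 0.398 to 0.899), or 1.67-fold lower. In JB1 the ratio was 0.785 (0.679 to 0.908), or 1.27-fold lower. The JB1 ratio was 1.31 times the E14 ratio, with a counting interval of 0.866 to 1.98 that holds 1. On the log2(RPM + 1) scale the differences were -0.34 in E14 and -0.29 in JB1. Without the added 1 RPM they were -0.74 and -0.35. By the 2-fold rule Igf2 was not among the genes counted as lower, which made up 0.269% of genes in E14 and 1.58% in JB1. At the 1.11 RPM of E14 wild type, only a near absence of knockout reads would have met the rule. Missing it in E14 therefore says little about Igf2. By any amount, 46.5% of genes were lower in the E14 knockout library and 48.5% in the JB1 knockout library. In ascending order of the difference, which the added 1 RPM shrinks for a gene this low, Igf2 stood at place 965 in E14 and place 2711 in JB1.

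Ins2 had 0 reads in all 4 libraries. This count allows at most 0.0424 RPM in E14 Zfp57-/-, 0.0594 RPM in E14 wild type, 0.0309 RPM in JB1 Zfp57-/- and 0.0434 RPM in JB1 wild type, taking 3 reads as the limit. Ins2 was therefore not detectable at this depth and entered no comparison. Ins1, the other mouse insulin gene, also had 0 reads in every library. Of 7 islet markers none reached 1 RPM, Pdx1 and Mafa included, and Gcg (glucagon) and Iapp (islet amyloid polypeptide) had 0 reads in all 4 libraries.

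The effect of genotype common to both lines was tested with limma on log2(RPM + 1), with line and genotype as terms, over the 12644 genes whose mean reached 1 RPM. The 2 lines are the only replicates and leave 1 residual degree of freedom per gene. Each standard error (SE) below is therefore limma's moderated one, which borrows variance from the other genes tested (5.28 prior degrees of freedom). It is not the spread of a gene's own 2 line values. Those values were 0.93 in E14 and 1.78 in JB1 for H19, and -0.34 and -0.29 for Igf2. H19 and Igf2 were tested, and Ins2 fell below the filter. H19 was higher by 1.35 ± 0.23 (log2, SE, n = 2 lines), with an unadjusted limma p of 0.000856, which was place 7 among all genes, and a Benjamini-Hochberg adjusted p of 0.623. Igf2 differed by -0.31 ± 0.22 (SE), with an unadjusted limma p of 0.193 and an adjusted p of 0.690. Neither passed the threshold of 0.05. No gene did in limma, 0% of those tested in each direction, while 633 genes were higher and 372 lower at an unadjusted p under 0.05. H19 was higher in 2 of 2 lines and Igf2 lower in 2 of 2 lines.

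Because both genes share a control region, the number of H19 reads per Igf2 read was followed within each library. It was 29.7 in E14 Zfp57-/- (counting interval 22.2 to 39.7) and 8.93 in E14 wild type (6.77 to 11.8). In JB1 it was 45.6 in Zfp57-/- (41.3 to 50.4) and 10.3 in wild type (9.23 to 11.5). The 2 wild-type intervals overlapped although the levels of both genes differed between the lines. The ratio was 3.32 times as high in Zfp57-/- as in wild type in E14 (2.23 to 4.96) and 4.44 times as high in JB1 (3.83 to 5.14), and the intervals of these 2 values overlapped. Gene length and library depth cancel in this comparison. Per kilobase of the GENCODE M21 union of exons (2460 bases for H19 and 5723 for Igf2), H19 was 69.1 times as abundant as Igf2 in E14 Zfp57-/-, 20.8 times in E14 wild type, 106 times in JB1 Zfp57-/- and 23.9 times in JB1 wild type. The annotation that the authors counted on is not given in the sources used here, so these per-length values depend on the GENCODE lengths.

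Both genes were higher in JB1 than in E14 in each genotype. H19 was 9.44 times as high in JB1 as in E14 among the Zfp57-/- libraries and 5.40 times among the wild-type libraries. Igf2 was 6.14 times as high in JB1 as in E14 among the Zfp57-/- libraries (95% interval 4.53 to 8.50) and 4.69 times among the wild-type libraries (3.53 to 6.33). The 2 tables were made separately, and a larger share of the JB1 totals fell in listed genes. With scaling by a trimmed mean of log ratios, the H19 values became 6.62 and 3.81 and the Igf2 values 4.31 and 3.31. Strain, line and table cannot be told apart in these values.

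Igf2as was near the bottom of the measurable range. It was 0.297 RPM in E14 Zfp57-/- and 0.218 RPM in E14 wild type, from 21 and 11 reads, and 0.289 RPM in JB1 Zfp57-/- and 0.361 RPM in JB1 wild type, from 28 and 25 reads. The ratio of Zfp57-/- to wild type was 1.36 in E14 (95% interval 0.628 to 3.13) and 0.799 in JB1 (0.449 to 1.43), so no difference was detectable at this depth. The kit marks strand, but whether counting used it is not given in the sources used here, and reads of Igf2 and Igf2as that fall in their overlap are uncertain. Igf2as held 30.9% of the reads of the pair in E14 Zfp57-/- (exact 95% interval 20.2% to 43.3%) and 16.4% in E14 wild type (8.49% to 27.5%), against 6.60% in JB1 Zfp57-/- (4.43% to 9.40%) and 6.49% in JB1 wild type (4.25% to 9.44%).

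No neighbouring gene reached a 2-fold difference on the log2(RPM + 1) scale in either line. Of the 34 listed genes within 500 kb on either side of the members, 9 in E14 and 10 in JB1 reached 1 RPM in a library, H19 and Igf2 included. Of the 7 others in E14, 5 were higher and 2 lower in Zfp57-/-, with a median of 0.20 on the log2(RPM + 1) scale against 0.02 over all genes. Of the 8 others in JB1, 3 were higher and 5 lower, with a median of -0.02 against 0.01 over all genes, and H19 was the only gene of the stretch beyond 2-fold. Over all genes, 53.5% were higher in E14 and 51.5% in JB1. At least 2-fold higher or lower were 0.953% and 0.269% in E14, and 2.5% and 1.58% in JB1. With shares this small, few neighbours would be beyond 2-fold in any stretch of this size. For neighbours at a few RPM, the added 1 RPM also shrinks the difference, so the rule asks for more than a 2-fold ratio. Over the whole of chromosome 7 the median was 0.04 in E14 (955 genes) and 0.03 in JB1 (1042 genes).

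Mrpl23, which encodes a mitochondrial ribosomal protein, is the nearest expressed gene on the H19 side, with its midpoint at -41.4 kb from the H19 transcription start, negative towards lower coordinates. It was at 17.9 RPM in E14 Zfp57-/- and 14.3 RPM in E14 wild type, and at 26.3 RPM in JB1 Zfp57-/- and 23.5 RPM in JB1 wild type. The number of H19 reads per Mrpl23 read was 1.59 times as high in Zfp57-/- as in wild type in E14 (counting interval 1.38 to 1.82) and 3.11 times as high in JB1 (2.89 to 3.34). Nctc1, a noncoding gene that lies between H19 and Mrpl23, had 0 reads in all 4 libraries.

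Ctsd, which encodes the lysosomal protease cathepsin D, was 1.15 times as high in Zfp57-/- as in wild type in E14 (380 and 330 RPM) and 0.668 times in JB1 (228 and 341 RPM). On the Igf2 side, Cd81, which encodes a tetraspanin, was 0.957 times as high in Zfp57-/- as in wild type in E14 and 0.597 times in JB1 (94.4 and 158 RPM). Dusp8, a phosphatase gene, passed 1 RPM only in JB1, at 0.866 RPM in Zfp57-/- and 1.65 RPM in wild type. Ascl2, a trophoblast transcription factor gene, was at 1.90 RPM in E14 Zfp57-/- and 1.31 RPM in E14 wild type, and at 1.82 RPM in JB1 Zfp57-/- and 1.84 RPM in JB1 wild type. Tspan32 was 1.48 times as high in Zfp57-/- as in wild type in E14 and 1.35 times in JB1, at 1.95 to 2.93 RPM. R74862 (ratios 1.15 and 1.01) and Tssc4 (0.902 and 0.975) lay closer to 1.

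The remaining genes of the stretch stayed under 1 RPM. Th (tyrosine hydroxylase), the muscle troponin genes Tnni2 and Tnnt3, Lsp1, Syt8, Trpm5, Gm14492, Gm15024, 6330512M04Rik and Kcnq1 had between 0 and 0.853 RPM. The Krtap5 keratin-associated genes, Gm4553, Gm10153, Gm7579, Gm2431, Gm4559, Gm10013 and Gm6471 had 0 reads in every library.

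**Figure D2:**
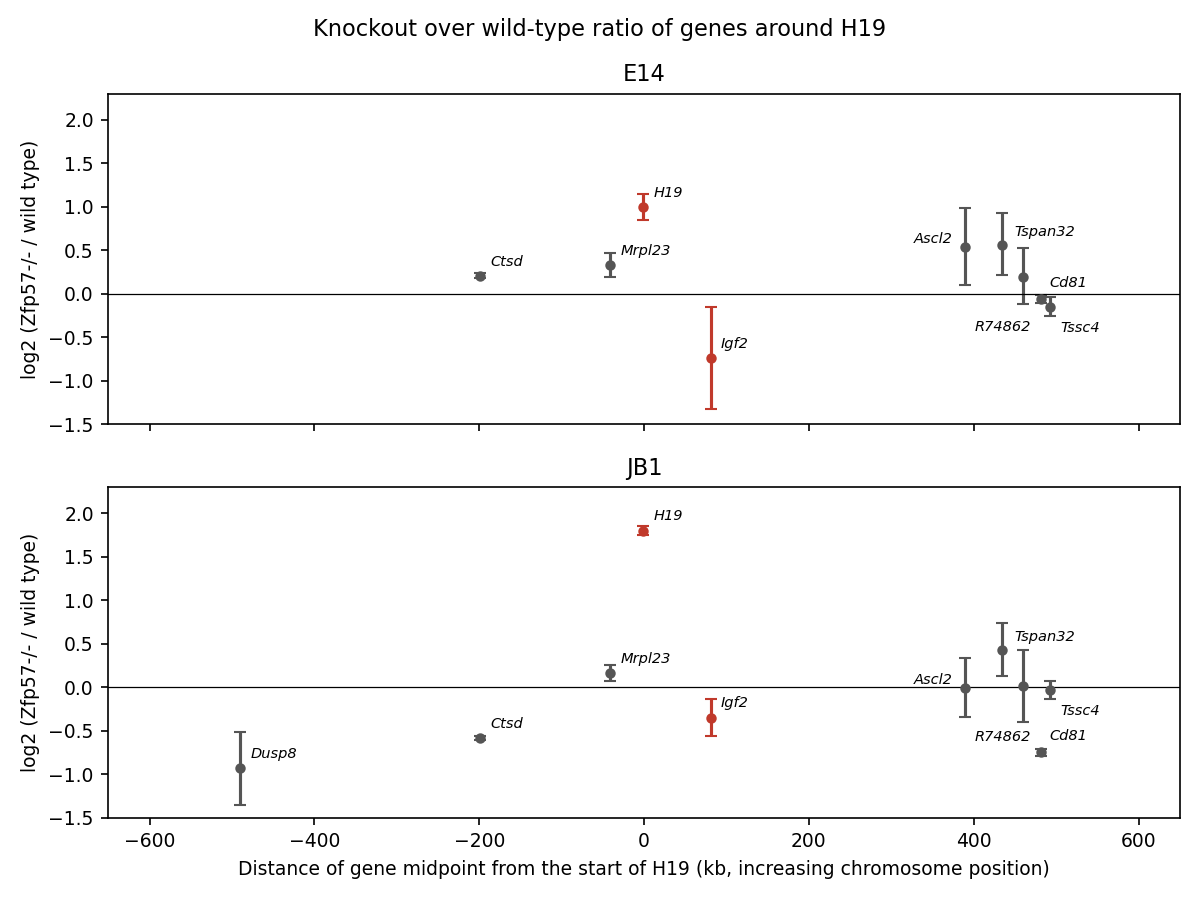
Ratio of Zfp57-/- to wild type (log2 of RPM ratios, 95% counting intervals) against the distance of each gene's midpoint from the H19 start in kb, for genes with at least 1 RPM in a library of the line. H19 (ratios 1.99 and 3.48) lies above, and Igf2 (0.599 and 0.785) below, its neighbour Mrpl23 (1.26 and 1.12) in both lines.

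The receptors and adaptors of IGF signalling had no common direction in E14, and in JB1 all of them were lower in Zfp57-/-, where 48.5% of all genes were lower. The lists used here were chosen with earlier results of these data known. Among the ligands, Igf1 was at most 0.165 RPM and Ins1 had no reads, so Igf2 was the only one of 4 to reach 1 RPM. Of the 7 receptors and adaptors, 6 reached 1 RPM in E14, of which 3 were higher and 3 lower in Zfp57-/- (median -0.03 on the log2(RPM + 1) scale). In JB1 all 7 reached 1 RPM and were lower. Their median was -0.43, against 0.01 over all genes, and 1 of them, Grb10, passed the 2-fold rule downwards, as did 1.58% of all genes.

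Igf1r, the receptor that transmits IGF2 signals, was 0.614 times as high in Zfp57-/- as in wild type in E14 (6.65 and 10.8 RPM) and 0.871 times in JB1 (15.1 and 17.4 RPM). Igf2r, which removes IGF2 from the cell surface and is itself imprinted, was at 268 and 221 RPM in E14 and at 119.8 and 239 RPM in JB1, so its ratio of Zfp57-/- to wild type was 1.21 and 0.50. Grb10, an imprinted adaptor that restrains signalling by these receptors, had a ratio of 0.617 in E14 and 0.0547 in JB1. In limma the adjusted p was 0.633 for Igf1r, 0.738 for Igf2r and 0.623 for Grb10.

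Among the 10 binding proteins and proteases, which hold or release IGFs outside the cell, 3 of 4 at 1 RPM were higher in E14 and 4 of 5 in JB1, where 53.5% and 51.5% of all genes were. Their median on the log2(RPM + 1) scale was 0.09 in E14 and 0.45 in JB1. Igfbp2 was at 26.8 RPM in E14 Zfp57-/- and 23.9 RPM in E14 wild type, and at 105 and 70.2 RPM in JB1. Igfbp3 was at 6.78 and 5.09 RPM in E14 and at 16.6 and 11.9 RPM in JB1. Igfbp7 passed the 2-fold rule downwards in JB1, at 0.68 RPM in Zfp57-/- and 3.12 RPM in wild type, and was at 1.78 RPM in both E14 libraries, where it is the 1 member counted as lower, by a margin far inside counting error (ratio 1.00, 95% interval 0.757 to 1.33). The 3 IGF2 mRNA binding proteins were all expressed. Igf2bp1 was at 482 and 438 RPM in E14 Zfp57-/- and wild type and at 450 and 461 RPM in JB1, and Igf2bp2 was at 19.5 and 27.1 RPM in E14 and at 63.9 and 68.2 RPM in JB1. None of the 3 was beyond 2-fold in a line.

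**Figure D3:**
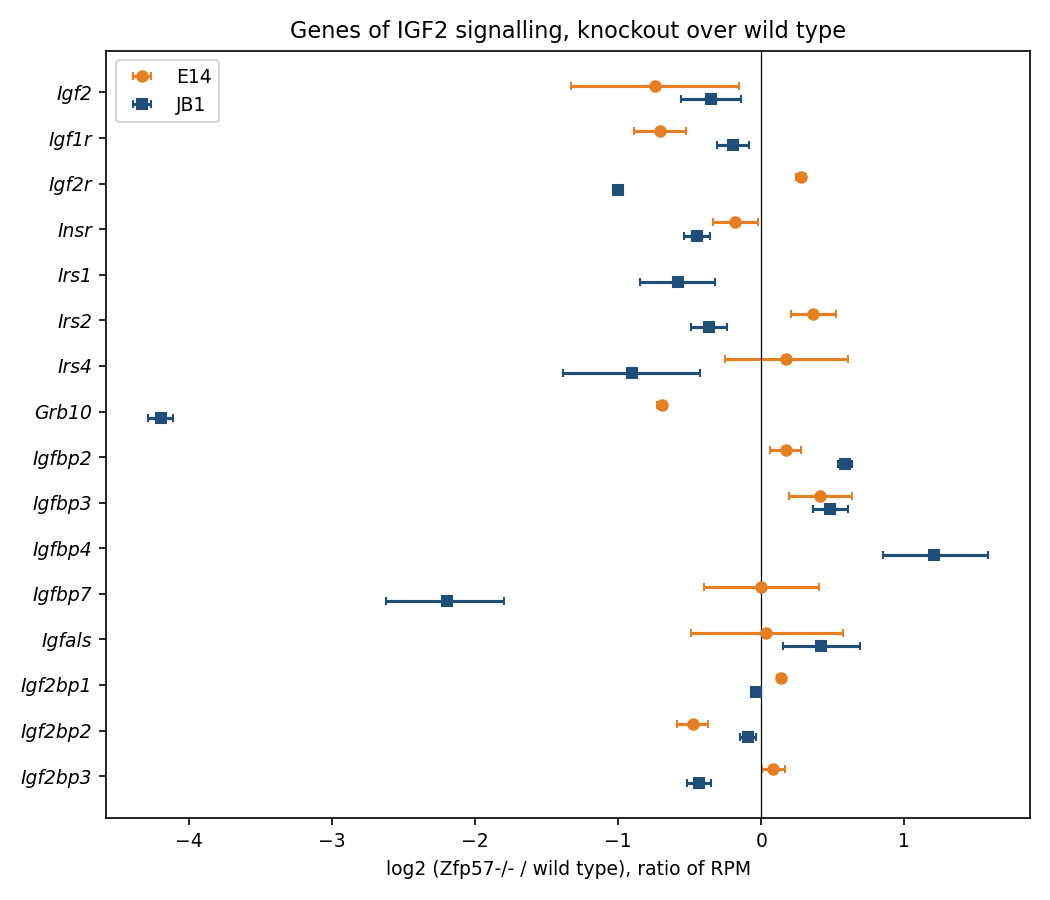
Ratio of Zfp57-/- to wild type (log2 of RPM ratios, 95% counting intervals) for the IGF ligands, receptors, adaptors and binding proteins that reached 1 RPM in a line, with E14 as circles and JB1 as squares. Grb10 in JB1 (ratio 0.0547) lies lowest, and Igf2 lies left of 0 in both lines.

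Of the factors that bind the control region or keep its methylation, Zfp57 alone passed the 2-fold rule in these libraries. All 20 reached 1 RPM in both lines. In E14, 9 were higher and 11 lower in Zfp57-/-, with a median of -0.05, and in JB1 7 were higher and 13 lower, with a median of -0.09. Over all genes, 53.5% were higher in E14 and 51.5% in JB1, and 0.269% and 1.58% were at least 2-fold lower. Zfp57 is the disrupted gene itself. Ctcf was at 129 RPM in E14 Zfp57-/- and 138 RPM in E14 wild type, and at 146 and 154 RPM in JB1. Trim28, the corepressor that ZFP57 recruits, was at 842 and 943 RPM in E14 and at 1332 and 1397 RPM in JB1. Dnmt1, the maintenance methyltransferase, had ratios of Zfp57-/- to wild type of 1.12 in E14 and 1.00 in JB1, and Uhrf1, which brings it to newly copied DNA, had ratios of 1.05 and 1.65. Dppa3, which protects imprints in the early embryo, was at 1.85 and 1.31 RPM in E14 and at 14.8 and 19.7 RPM in JB1.

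The paternally methylated control regions of the mouse also include those of the Dlk1-Dio3 cluster and of Rasgrf1. Like H19, the maternally expressed RNAs Meg3, Rian and Mirg were higher in both knockout libraries, with ratios of 1.34 to 1.44 in E14 and of 8.09 to 10.96 in JB1. The H19 ratio thus lay above these 3 in E14 (1.99) and below them in JB1 (3.48). Dlk1, a paternally expressed gene of that cluster, was at 0.707 RPM in E14 Zfp57-/- and 0.436 RPM in E14 wild type, and at 5.47 and 1.33 RPM in JB1. Its ratio of Zfp57-/- to wild type was 1.62 in E14 (50 and 22 reads, 95% interval 0.965 to 2.81, which holds 1) and 4.12 in JB1 (3.29 to 5.20). Dio3 was at 2.99 RPM in JB1 Zfp57-/- and 3.09 RPM in JB1 wild type. Rtl1 and Rasgrf1 stayed at or below 0.116 RPM in all libraries.

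**Figure D4:**
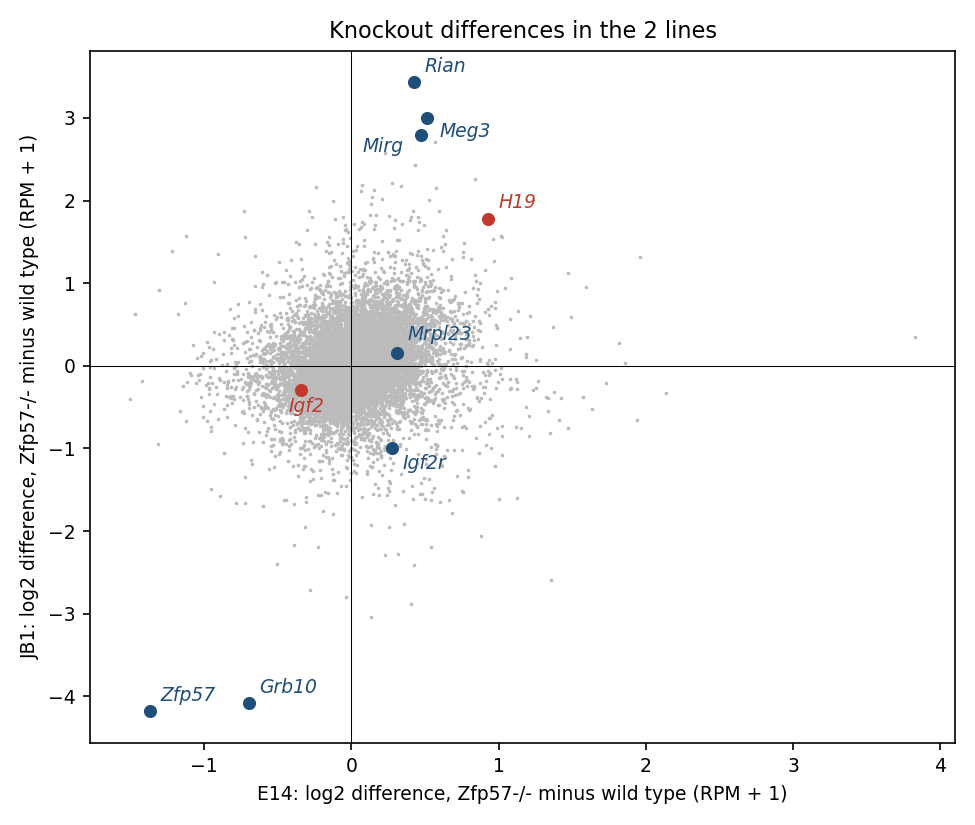
Difference between Zfp57-/- and wild type on the log2(RPM + 1) scale in E14 (x) and JB1 (y) for the 11890 genes with at least 1 RPM in a library of each line (grey), with named genes marked. H19 (0.93 and 1.78) lies apart from the cloud in the upper right, and Igf2 (-0.34 and -0.29) lies inside it.

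H19 and Igf2 belong to a set of imprinted growth genes that are often expressed together in embryonic tissues. Of the 17 genes of this list, 14 reached 1 RPM in E14, of which 11 were higher and 3 lower in Zfp57-/-, where 53.5% of all genes were higher. The median was 0.33, and Plagl1 passed the 2-fold rule upwards, as did 0.953% of all genes. In JB1 16 reached 1 RPM, of which 9 were higher and 7 lower, where 51.5% of all genes were higher. The median was 0.28, and 6 genes (H19 among them) passed the 2-fold rule upwards and Grb10 downwards, against 2.5% and 1.58% of all genes. Peg3, Mest and Nnat were higher in JB1 Zfp57-/- with ratios of 2.37, 2.11 and 7.74, and had ratios of 1.32, 1.09 and 2.95 in E14. Plagl1, whose zinc finger product is known to bind the shared enhancers of H19 and Igf2, was at 10.9 RPM in E14 Zfp57-/- and 3.29 RPM in E14 wild type, and at 16.0 and 27.8 RPM in JB1. Cdkn1c, a cell cycle inhibitor gene farther along the same chromosome, was at 12.5 and 8.22 RPM in E14 and at 3.26 and 4.15 RPM in JB1. Slc38a4, which encodes an amino acid transporter, had ratios of 1.04 and 1.37.

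H19 and Igf2 are strongly made in embryonic endoderm and mesoderm, so markers of such cells and of fibroblasts were set beside them, with those of pluripotent cells. For scale, 53.5% of all genes rose and 46.5% fell in Zfp57-/- in E14, against 51.5% and 48.5% in JB1. The 2-fold rule was passed upwards by 2.5% of all JB1 genes and downwards by 1.58%. The marker counts below were not tested against these shares. Of 13 primitive or visceral endoderm markers, 6 reached 1 RPM in E14, 1 higher and 5 lower in Zfp57-/-, and their summed level was 17.0 RPM in Zfp57-/- and 18.8 RPM in wild type. Among the 5 lower, the counting intervals of Gata6 (0.512 to 1.03), Pdgfra (0.617 to 1.06) and Cubn (0.831 to 1.10) held a ratio of 1. Those of Gata4 (0.386 to 0.700) and Dab2 (0.596 to 0.952) did not. In JB1 9 reached 1 RPM, 8 higher and 1 lower, and the sum was 58.6 RPM in Zfp57-/- and 40.1 RPM in wild type. Cubn (8.89 and 2.43 RPM) and Hnf4a (2.09 and 0.405 RPM) passed the 2-fold rule upwards in JB1, and Dab2, the most abundant, was at 29.6 and 20.2 RPM. The 1 lower in JB1 was Gata4, at 2.97 RPM in Zfp57-/- and 6.10 RPM in wild type. Gata4 was also lower in E14, at 1.15 and 2.20 RPM. Afp, the alpha-fetoprotein gene of visceral endoderm, had at most 0.0707 RPM and 0 reads in both wild-type libraries. Trophoblast markers summed to 28.8 RPM in Zfp57-/- and 27.6 RPM in wild type in E14, and to 92.4 and 59.7 RPM in JB1. In E14 5 of 6 at 1 RPM were higher, and in JB1 4 of 6 were. Krt8 passed the 2-fold rule upwards in JB1 (13.96 and 5.79 RPM). Tcfap2c was at 54.7 and 35.2 RPM in JB1, and Krt18 at 12.2 and 8.21 RPM. Of the 9 mesoderm and muscle markers, 1 reached 1 RPM in each line, and the list summed to 2.24 and 2.12 RPM in E14 and to 10.2 and 10.1 RPM in JB1, the JB1 sums mostly from Myod1 (7.26 and 7.92 RPM). The E14 sums came mostly from Kdr (1.56 and 1.53 RPM). Fibroblast or feeder markers (3 of 10 at 1 RPM in E14 and 5 of 10 in JB1) summed to 5.55 RPM in Zfp57-/- and 4.70 RPM in wild type in E14, and to 22.1 and 13.6 RPM in JB1, with Dcn at 0 reads throughout. All 3 in E14 were higher in Zfp57-/-, and in JB1 4 were higher and 1 lower. The JB1 members went opposite ways beyond 2-fold, with Pdgfrb at 5.73 RPM in Zfp57-/- and 1.43 RPM in wild type, and Twist1 at 0.814 and 3.40 RPM. Thy1 was at 7.95 and 3.61 RPM in JB1, and Col1a1 at 5.19 and 3.67 RPM. Of 10 pluripotency markers, 8 were lower in Zfp57-/- in E14 and 7 in JB1, with sums of 3226 and 3681 RPM in E14 and of 4801 and 5503 RPM in JB1. In JB1 Klf4 passed the 2-fold rule downwards (164 and 409.6 RPM) and Utf1 upwards (169.9 and 61.4 RPM). Dppa5a was at 929 and 829 RPM in E14 and at 857 and 883 RPM in JB1. The part of these cells in the H19 and Igf2 values was not tested, and a change in the number of cells that express a gene cannot be told apart from a change in RNA per cell.

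The genes whose levels were most like those of H19 were found by the Euclidean distance between log2(RPM + 1) values centred over the 4 libraries, among 11275 genes with at least 1 RPM in each. The nearest 5 were Akr1b8, an aldo-keto reductase gene (distance 0.477), 2410004A20Rik, 4930583H14Rik, the cyclin gene Ccnd3 and the phosphofructokinase gene Pfkm (0.759). All 5 were higher in the knockout library of both lines, with ratios of 1.18 to 1.82 in E14 and 1.91 to 4.79 in JB1. None of the 5 lies on chromosome 7. Igf2, at 0.665 RPM in E14 Zfp57-/-, was itself below this filter, and its 4 values were compared with the same 11275 genes. The added 1 RPM shrinks the differences of a gene this low, so its likeness to genes at higher levels holds on this scale only. The nearest 5 to Igf2 were Il28ra (0.0269), Rnf24, Smox, which encodes spermine oxidase, Rfx7 and Zfp935 (0.0824). Their ratios of Zfp57-/- to wild type were 0.682 to 0.811 in E14 and 0.78 to 0.86 in JB1. The distances describe 4 values per gene and carry no test. Both sets were chosen by these same values, so their likeness in ratio to H19 or Igf2 is not a separate result.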

How the data were processed

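The authors deposited 1 table per cell line, with a log2 value of RPM (reads per 1000000) for each gene. TopHat2 2.0.8b, cutadapt, CASAVA 1.8.2 and the genome build mm9 appear in the submitters' processing notes. For the annotation, the counting tool and its strand setting, the sources used here give nothing. In all 4 libraries, 0.9 × 2 to the power of (value - lowest value) was a whole number in 100% of genes above that minimum (relative tolerance 0.0001). A gene with no read thus stands at the value of 0.9 read, and was set to 0 here. A gene at 1 RPM had 50.5 to 97.0 reads.

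Groups came from the titles. Ratios are RPM of Zfp57-/- over wild type within a line. Their 95% intervals are exact conditional binomial, those of levels exact Poisson, and those of ratios of ratios Wald intervals on the log scale ("counting interval"). limma 3.58.1 in R 4.3.3 was fitted to log2(RPM + 1) of all genes whose mean reached 1 RPM, with line and genotype as terms and eBayes with trend. It was checked on simulated data that had no difference between lines and the same knockout effect in both. That check therefore does not cover genes whose knockout effect differs by line. Same-line libraries pair by the line's name in the titles.

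The members, lists and naming rule were chosen with earlier results of these data known. Named were the members, all genes within 500 kb, list genes beyond 2-fold in a line, the 2 most abundant genes of each list, and the 5 genes most like H19 and Igf2. Further genes (Sox2, Nanog, Dcn, Igf1, Ins1, Igf1r, Ctcf, Dnmt1, Uhrf1, Dppa3, Dio3, Rtl1, Rasgrf1, Cdkn1c, Gcg, Iapp, Afp) were named for their role. Gata4 was named as the endoderm marker that was lower in JB1. All 127 list entries had a row in the tables, 2 of them under an older symbol in the RefSeq gene table (GRCm38.p6). The tables hold log2 values, as deposited, and limma took the place of a model for counts.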

Additional observations from a re-analysis of the deposited data

Results flagged for a closer look

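Among the genes named above, 10 had ratios of Zfp57-/- to wild type on opposite sides of 1 in the lines, with counting intervals that excluded 1 in both. With 1 library per group the difference between lines was not tested. The share of such genes over all genes was not computed, so whether 10 is many cannot be said. In genes with many reads, counting intervals exclude 1 at small differences. Plagl1 had a ratio of 3.32 in E14 and 0.577 in JB1. Igf2r had 1.21 in E14 and 0.50 in JB1, and Ctsd had 1.15 and 0.668. Cdkn1c had 1.53 and 0.786, and Dppa3 had 1.42 and 0.750. Dab2, an endoderm marker, had 0.753 and 1.47, and Tcfap2c, a trophoblast marker, had 0.846 and 1.56. Igf2bp1 (1.10 and 0.976), Dppa5a (1.12 and 0.97) and Pou5f1 (0.921 and 1.02) lay near 1 in both lines. H19 and Igf2 were not among them.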

How the results depend on the processing

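H19 stayed higher and Igf2 lower in Zfp57-/- under every alternative run. Of the values recomputed, 61 for the comparisons and 458 for single genes were counted as unchanged, 12 moved (given below) and none reversed. No limma setting called a gene, so no gene or count of called genes could change its side of the threshold. For single genes only the kept direction carries information. In the shared limma fit the H19 difference was 1.22 to 1.37 (log2) over 9 settings, with an adjusted p of 0.576 to 1.00, and that of Igf2 was -0.39 to -0.14 over 8 settings, with an adjusted p of 0.656 to 1.00. With a filter of 5 RPM Igf2 was not tested. With no replicate block (genotype alone), the paired fit's H19 adjusted p became 1.00 at the same difference of 1.35, and that of Igf2 1.00 at -0.31, and no setting called a gene. With 1 line left out there is no test, and the H19 value was 0.93 to 1.78 and the Igf2 value -0.34 to -0.29.

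With TMM factors, chosen after seeing the data for this comparison, the ratio of JB1 to E14 for H19 was 6.62 in Zfp57-/- and 3.81 in wild type, and that for Igf2 was 4.31 and 3.31. With scaling to the sum over listed genes, the H19 values were 7.35 and 4.18. Genes at least 2-fold changed in E14 numbered 117 higher and 33 lower, 183 and 50 with a pseudocount of 0.5, and 44 and 6 with a pseudocount of 5. In JB1 they numbered 328 and 208, and 111 and 83 with a pseudocount of 5. With Igf2as reads added to those of Igf2, also chosen after seeing the data, the change of the H19 to Igf2 read ratio was 2.75 in E14 and 4.43 in JB1. The planned count models on recovered reads were not run. Depth limits Igf2 in E14, Igf2as and Ins2.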
